A study of Mus musculus with 30 samples.

Results

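The 8 loci described here belong to genes that the Wnt pathway switches on through beta-catenin, namely Axin2, Nkd1, Lef1, Sp5, T, Cdx1, Ccnd1 and Myc. A locus is the body of the gene in the GENCODE annotation of the mouse genome build GRCm38 (mm10) with 20 kb added on either side, and its members are the peaks of 20 peak lists that overlap it by at least 1 bp. All 8 genes were found among 21938 protein-coding genes, and their loci hold 1005 of the 1428772 peaks in the lists. The peaks come from chromatin immunoprecipitation with sequencing (ChIP-seq) in E14 mouse embryonic stem cells whose CTCF carries an auxin-inducible degron (CTCF AID), so that adding the plant hormone auxin, here IAA, has the protein broken down. Cells were taken without IAA (0 h) or after 12 h of IAA. CTCF and the cohesin subunit SMC1A have 1 list per time. The remodelers CHD4, CHD8, SMARCA4 and SMARCA5 were each measured in CTCF AID cells that also carry a biotin tag on that remodeler, with 2 libraries per time. Every group was grown in the same serum-free medium with leukemia inhibitory factor, the MEK inhibitor PD0325901 and CHIR99021, an inhibitor of GSK3, so the Wnt pathway was stimulated in all of them. The labels do not say that the 2 libraries of a group come from separate cultures, so the spread between them may be technical. No RNA was analysed here: the lists show where the proteins sit, and whether CHD8 controls these genes was not measured.

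In the canonical Wnt pathway a complex that holds Axin, APC and GSK3 marks beta-catenin for destruction, and a Wnt signal or a GSK3 inhibitor stops this. Beta-catenin then enters the nucleus and binds the DNA-binding factors of the TCF/LEF family at their target genes. CHD8 is a chromatin remodeling ATPase that binds beta-catenin and is known as a repressor of its target genes. CHD4 is the ATPase of the NuRD complex, SMARCA4 (BRG1) that of the BAF complex and SMARCA5 (SNF2H) that of the ISWI complexes. CTCF binds its own DNA motif and, with cohesin, holds the ends of chromatin loops.

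The remodeler lists hold 40880 to 187294 peaks. The CTCF list shrank from 29934 peaks at 0 h to 2248 at 12 h, and the SMC1A list from 16724 peaks to 10, so the absence of SMC1A from a locus at 12 h is shared with nearly the whole genome. Because a longer list has more peaks in any locus, peak numbers are compared below as shares of their list, and strengths as ranks within a fixed set of promoters.

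Sequences are shown first for the members in which the TCF/LEF motif lay under CHD8 or just before the gene. The motif was searched as CTTTGAT, and in a second form as CTTTGTT, on either strand. The window of 100 bp on either side of the summit of the strongest CHD8 peak in the locus at 0 h held a match at Nkd1 and T in both libraries, at Cdx1 in replicate 1 only, and at no other member in either library. At Ccnd1 these windows lay 24681 and 24985 bp past its start, at the promoter of another gene, LTO1. The CHD8 peaks at the Ccnd1 promoter at 0 h were therefore not searched. Over all CHD8 peaks at 0 h, 7.03% of such windows held a match in replicate 1 and 6.65% in replicate 2. In the 250 bases before the Sp5 start in RefSeq (chr2:70474673-70474922, plus strand) there were 2 matches, 1 on each strand. Of the 5 members in the RefSeq table of promoters, Sp5 alone had a match: Axin2, Nkd1, T and each start of Lef1 had 0, and the Nkd1 start in that table is not the one used elsewhere here. Of all promoters in the RefSeq table, 300 bases long, 7.94% held at least 1. The windows printed are chr17:8433952-8434152 at T, whose CHD8 summit lay −371 bp from the gene's start, and chr8:88521129-88521329 at Nkd1, with its summit at −125 bp. All are plus strand of GRCm38, with the motif in capitals.
Sp5 upstream: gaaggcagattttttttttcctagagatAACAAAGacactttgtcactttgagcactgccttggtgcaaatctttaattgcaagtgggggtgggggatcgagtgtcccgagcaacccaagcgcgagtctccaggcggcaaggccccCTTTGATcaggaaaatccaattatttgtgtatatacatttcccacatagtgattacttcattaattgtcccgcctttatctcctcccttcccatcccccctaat
T CHD8 window: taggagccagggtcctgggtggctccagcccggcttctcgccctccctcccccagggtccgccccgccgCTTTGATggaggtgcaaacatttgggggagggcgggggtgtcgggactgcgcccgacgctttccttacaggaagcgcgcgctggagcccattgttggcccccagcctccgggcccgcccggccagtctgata
Nkd1 CHD8 window: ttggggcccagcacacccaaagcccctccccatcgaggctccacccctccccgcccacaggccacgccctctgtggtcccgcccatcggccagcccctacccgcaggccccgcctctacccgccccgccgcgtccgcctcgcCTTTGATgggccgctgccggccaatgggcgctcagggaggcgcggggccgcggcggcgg
A match says only that these letters are present, and binding of a TCF/LEF factor was not measured.

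Every one of the 8 promoters, taken as 1 kb on either side of the gene's 5′ end, held a CHD8 peak in both libraries at 0 h and at 12 h. The same was true of CHD4 and SMARCA4. Over all protein-coding genes, 57.5% of promoters had CHD8 in both lists at 0 h and 56.1% at 12 h, 60.0% and 56.3% had CHD4, and 55.5% and 59.7% had SMARCA4. SMARCA5 was less complete: 6 of the 8 promoters had it in both lists at 0 h, all but Lef1 and T, and 7 at 12 h, all but Lef1, against 40.9% and 43.2% of all promoters. A peak in all 16 remodeler lists was found at 6 of the 8, and at 31.0% of all promoters. CTCF had no peak at any of the 8 promoters at either time (13.7% of all promoters at 0 h and 1.83% at 12 h). With only peaks of a −log10 q of 5 or more, CHD8 was in both lists at 5 of the 8 at either time, against 53.5% of all promoters at 0 h and 52.5% at 12 h. Under the same limit SMARCA5 was at 1 of the 8 at 0 h and 5 at 12 h, against 14.5% and 18.7%. SMC1A had one at Axin2, Lef1 and Myc at 0 h (11.1% of all) and at none at 12 h (0.00912%).

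Most CHD8 peaks at these promoters ranked low among the promoters that CHD8 bound. Each promoter's strongest peak was ranked by its −log10 p among the promoters bound in all 4 lists of that remodeler, on a scale where 100 is the strongest, over 12015 promoters for CHD8, 11901 for CHD4, 11731 for SMARCA4 and 7658 for SMARCA5. At 0 h the median rank of the 8 promoters, by the mean of the 2 libraries, was 6.42 for CHD8, 54.8 for CHD4 and 76.6 for SMARCA4, and that of the 6 with SMARCA5 was 51.9. At 12 h these medians were 14.2, 72.3, 79.2 and 58.3. In CHD8, 7 of the 8 promoters lay under rank 50 at both times, and Axin2 was the exception. Under rank 50 lay 3 of the 8 in CHD4 at 0 h and 2 at 12 h, 1 of the 8 in SMARCA4 at either time, and 3 of the 6 in SMARCA5 at either time. Among CHD4, CHD8 and SMARCA4, CHD8 had the lowest rank at 7 of the 8 at 0 h, all but T, and at all 8 at 12 h. Of the 9777 promoters bound in all lists of these 3 remodelers, CHD8 ranked lowest at 42.7% at 0 h and 44.7% at 12 h. The ranks set each remodeler against its own bound promoters, so they do not compare amounts of protein. This rank was chosen as a measure after the data were seen. With promoters of 5 kb on either side the CHD8 median at 0 h was 15.2, and with only peaks of a −log10 q of 5 or more, which left 5 of the 8, it was 13.9.

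**Figure D1:**
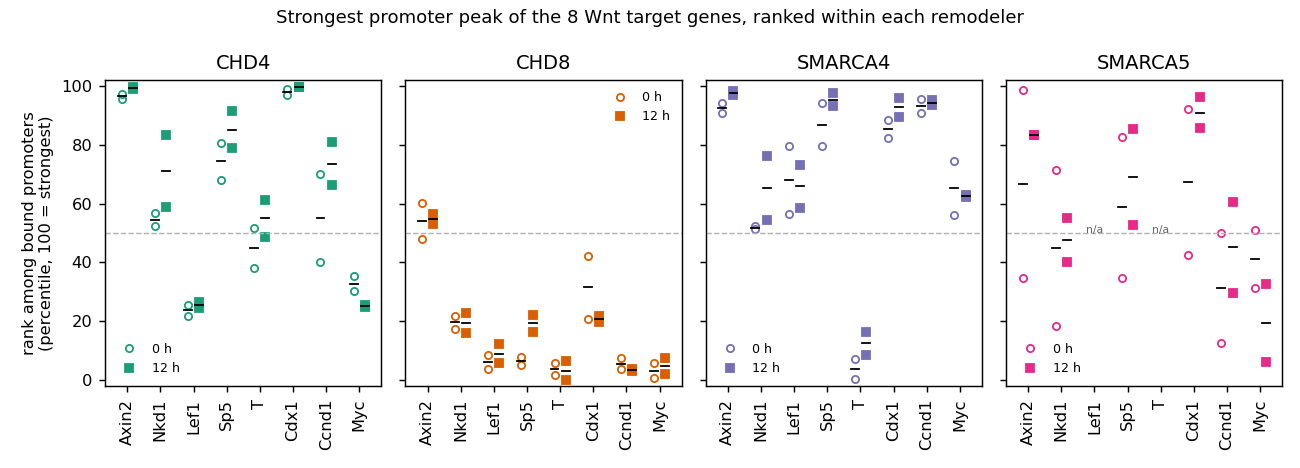
Rank of the strongest promoter peak (y axis, percentile among the promoters bound in all 4 lists of the remodeler) for each of the 8 genes (x axis), in 1 panel per remodeler. Open circles are the 2 libraries at 0 h, filled squares the 2 at 12 h, black bars their means, and n/a marks promoters outside the set. CHD8 ranks lie under 25 at all genes but Axin2 and, in 1 library at 0 h, Cdx1, whereas most CHD4 and SMARCA4 ranks lie above 50.

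Axin2 and Nkd1 are feedback inhibitors, made in response to the pathway and acting against it. Axin2 is a scaffold of the beta-catenin destruction complex and lies at chr11:108920349-108950783 on the plus strand. It was the member with the strongest CHD8 promoter peak: the fold enrichment, as the authors' peak caller gave it, was 16.6 and 9.70 in the 2 libraries at 0 h and 15.2 and 10.1 at 12 h. The CHD8 ranks were 60.2 and 48.0 at 0 h and 56.4 and 53.0 at 12 h, so the times overlapped. CHD4 at this promoter ranked 95.4 and 97.3 at 0 h and 98.8 and 99.5 at 12 h. SMARCA4 ranked 90.7 and 94.1, then 98.2 and 96.8. In both, the 12 h libraries were above the 0 h ones, from a start already near the top of the scale. The SMARCA5 rank at 0 h differed widely between libraries, at 98.6 and 34.7, and both 12 h libraries lay between, at 83.3 and 83.2. The ranked SMARCA5 peaks were not at the same place. Their summits lay 285 and 1573 bp past the start at 0 h and 1240 and 761 bp past it at 12 h.

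Nkd1 binds Dishevelled and dampens the signal. It lies at chr8:88521354-88594884 on the plus strand and held few CHD8 peaks: 1 in each library at 0 h, and 3 in replicate 1 with 2 in replicate 2 at 12 h. The promoter peak was the whole of CHD8 in the locus at 0 h, with a fold enrichment of 6.74 and 5.03, and 7.40 and 4.43 at 12 h. Its CHD8 ranks were 17.4 and 21.9 at 0 h and 23.0 and 16.1 at 12 h, which overlap. CHD4 ranked 56.7 and 52.4 at 0 h and 83.2 and 58.9 at 12 h, and SMARCA4 52.4 and 51.3, then 76.0 and 54.4. In both remodelers the 12 h libraries lay above the 0 h ones, replicate 1 by the most. This locus held no CTCF and no SMC1A peak at either time.

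Lef1 and Sp5 carry the response further. Lef1 is itself a DNA-binding partner of beta-catenin, and its gene (chr3:131110471-131224356, plus strand) makes the longest of the 8 loci. CHD8 peaks numbered 9 and 6 there before IAA and 5 in each library after it. At its promoter the CHD8 ranks were 4.01 and 8.66 at 0 h and 12.4 and 5.77 at 12 h. By the mean percentile of the 2 libraries, the region with the highest CHD8 at 0 h was centred −3968 bp from the start, at 65.2 and 50.1, and it was also occupied by CHD4 and SMARCA4 in every list. Neither library had its own strongest peak there: in replicate 1 that peak lay 1701 bp past the start, with a fold enrichment of 6.02, and in replicate 2 it lay at −103 bp, with 4.34. CHD4 at the promoter ranked 22.0 and 25.6, then 26.6 and 24.7, the lowest of the 8 genes in CHD4 at 0 h.

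Sp5 is a zinc-finger transcription factor induced directly by Wnt. At Sp5 (chr2:70474923-70477729, plus strand) the CHD8 promoter rank was 5.08 and 7.94 at 0 h and 16.5 and 22.3 at 12 h, and the fold enrichment was 4.96 and 4.39, then 7.95 and 6.24. The times did not overlap, and Sp5 was the only 1 of the 8 promoters with higher values at 12 h in both CHD8 libraries, where 22.1% of bound promoters were higher and 21.3% lower. The ranked CHD8 peaks were not at one place. Their summits lay 1297 and 1360 bp past the start at 0 h, outside the promoter, and 330 and 280 bp past it at 12 h. A region centred 258 bp past the start had CHD8 in both lists at either time. The peaks over it had a fold enrichment of 4.19 and 3.81 at 0 h and 7.95 and 6.24 at 12 h. CHD4 at Sp5 ranked 67.9 and 80.7, then 91.3 and 78.8, and SMARCA4 79.5 and 93.9, then 93.0 and 97.5, with overlap in both.

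T and Cdx1 are transcription factors of the early embryo, T (brachyury) of mesoderm and Cdx1 of the posterior body axis. The T locus was the most sparsely occupied by SMARCA5, with 1 peak in each of its 4 lists. At its promoter (gene at chr17:8434423-8442496, plus strand) both CHD8 and SMARCA4 were weak. CHD8 ranked 6.05 and 1.88 at 0 h and 6.57 and 0.150 at 12 h. SMARCA4 ranked 7.31 and 0.580 at 0 h and 8.78 and 16.6 at 12 h, with both 12 h libraries higher. The ranked SMARCA4 peaks were not all at the same place. In replicate 2 at 0 h the summit lay 502 bp past the start, with a −log10 q of only 1.66. In the other libraries it lay before the start, at −681 bp at 0 h and at −496 and −319 bp at 12 h. CHD4 at T was in the middle of its scale, at 51.7 and 38.0, then 48.5 and 61.3.

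Cdx1 lies at chr18:61018862-61036199 on the minus strand. Its promoter was the top of the 8 in CHD4 by the mean of either time, at 99.0 and 96.9 at 0 h and 99.5 and 99.4 at 12 h. CHD8 there ranked 42.3 and 20.9 at 0 h and 19.8 and 21.8 at 12 h, so the high value came from 1 library. The summits of these peaks lay outside the promoter, 1232 to 1366 bp past the start in CHD4 and 1074 to 1205 bp in CHD8. SMARCA4 ranked 82.1 and 88.2, then 89.2 and 96.0, and the ranks of both CHD4 and SMARCA4 were higher in both 12 h libraries. The SMARCA4 summits were not all at the same place, at 1223 and −328 bp at 0 h and 874 and 1182 bp at 12 h. The fold enrichment did not follow the rank: that of CHD4 was 21.5 and 15.6 at 0 h and lower in both 12 h libraries, at 13.3 and 11.7, and that of SMARCA4 was 8.44 and 7.85, then 7.60 and 8.63, which overlap. The CHD8 region, centred 1007 bp past the start, had a peak in all 16 remodeler lists and held a 0 h CTCF site.

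Ccnd1 encodes cyclin D1 and Myc the transcription factor c-Myc, both of which drive cell growth and division. At Ccnd1 (chr7:144929931-144939925, minus strand) the promoter itself had weak CHD8, with ranks of 7.72 and 3.73 at 0 h and 3.30 and 3.77 at 12 h, beside SMARCA4 ranks of 90.7 and 95.3, then 95.2 and 93.4. A stronger CHD8 peak lay upstream, over 4 regions centred from −1584 to −3278 bp, at the 85.9 and 77.4 percentile of its lists at 0 h. The SMARCA4 peaks ranked at the promoter were wide, 5115 to 6315 bp, with summits at −3411 and −3294 bp at 0 h and −1465 and −1514 bp at 12 h, outside the promoter and over that same upstream stretch. The low CHD8 and high SMARCA4 ranks were thus not taken at one place. The strongest CHD8 of the locus belonged to another gene: it sat at the promoter of LTO1, 25067 bp from the Ccnd1 start, with a fold enrichment of 17.6 and 22.4 at 0 h and 29.5 and 27.6 at 12 h.

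At Myc (chr15:61985391-61990374, plus strand) CHD8 ranked 5.91 and 0.774 at 0 h and 7.43 and 2.08 at 12 h, the lowest mean of the 8 at 0 h. CHD4 ranked 30.3 and 35.3 at 0 h and 24.8 and 25.6 at 12 h. Myc was the only 1 of the 8 whose CHD4 rank was lower in both 12 h libraries. The ranked CHD4 peaks were not all at one place. In replicate 2 at 0 h the summit lay at −1132 bp, outside the promoter, and in the other libraries at 97, 298 and 167 bp past the start. The fold enrichment of CHD4 was 5.26 and 6.81 at 0 h and 5.08 and 5.25 at 12 h. SMARCA4 ranked 74.4 and 56.1, then 62.8 and 62.2, which overlap.

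Counted over the 8 genes, the CHD4 rank was higher in both 12 h than both 0 h libraries at 3 (Axin2, Nkd1 and Cdx1) and lower at 1 (Myc), where 19.4% and 18.8% of all bound promoters were. For SMARCA4 it was higher at 4 (Axin2, Nkd1, T and Cdx1) and lower at none, against 21.2% and 22.0%. At T and Cdx1 the summits of the ranked SMARCA4 peaks were not all at the same place. For SMARCA5 none of the 6 was higher or lower, against 16.6% and 17.2%. The median change of rank over the members was 6.44 for CHD4 and 6.25 for SMARCA4, where the median over all bound promoters was 0.26 and −0.0043, and it was 0.26 for CHD8, where that over all was 0.14. For the 6 promoters with SMARCA5 it was 12.0, where that over all was 0.42, although no single one was separated. With 2 libraries a time, an exact permutation test within 1 remodeler cannot give a p under 0.333, so these orders have no test.

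The share of each list that fell in a locus gave no call. For each gene the log2 of its peaks plus 1, per 10000 peaks of the list, was compared between times by an exact permutation of the libraries within each remodeler, two-sided. Of 16785 genes tested, 0 (0%) passed an adjusted p of 0.05, and 1446 (8.61%) had an unadjusted p under it, 606 higher and 840 lower. The smallest p of the 1296 relabellings was 0.00154, which 71 genes reached, where 519 would have been needed for a call, so the test could not call a single locus alone. Lef1 had the smallest p of the 8 loci: its share was lower at 12 h by a mean of −0.30 on the log2 scale, in all 4 remodelers (p = 0.0448, adjusted p = 0.564, exact permutation test). It was not lower with only peaks of a −log10 q of 5 or more (0.14) or with lists cut to 1 length (0.071). The other 7 lay between −0.38 (Myc, p = 0.148 and adjusted p = 0.699 by the same exact permutation test) and 0.33 (Nkd1, p = 0.131 and adjusted p = 0.683). The median of the 8 was −0.097, and that of all genes tested −0.018.

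The differences between loci were widest for CHD8, from −0.50 to 0.91. The CHD8 counts behind them were small, such as 1 peak in each 0 h list at Nkd1, so few peaks move a difference. At Axin2 the CHD8 lists had 5 and 2 peaks before IAA, 10 and 5 after it, which is 0.963 and 0.489, then 1.93 and 1.18 per 10000 peaks, a mean log2 difference of 0.91. At Nkd1 the shares were 0.193 and 0.245, then 0.579 and 0.473, a difference of 0.77, and at Lef1 they were 1.73 and 1.47, then 0.965 and 1.18, a difference of −0.50. The 2 times did not overlap at these 3 loci. On the log2 scale with 1 peak added, Cdx1 and Myc were also higher in both 12 h lists, which makes 4 loci higher and 1 lower, against 13.3% and 18.5% of genes tested, but replicate 1 had the same number of peaks at both times at each of them, 6 at Cdx1 and 5 at Myc.

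**Figure D2:**
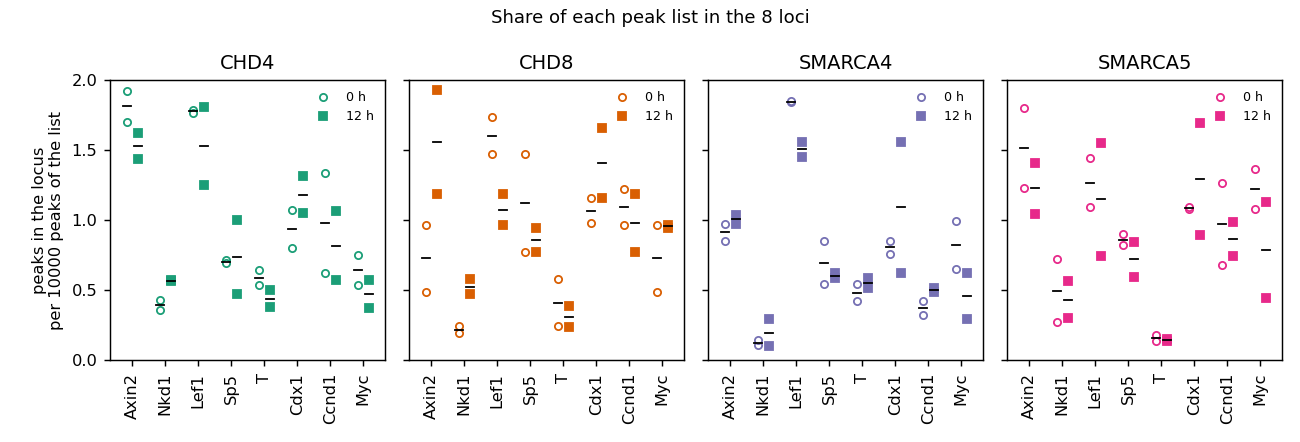
Peaks in each locus per 10000 peaks of the list (y axis) for the 8 genes (x axis), in 1 panel per remodeler. Open circles are the 2 libraries at 0 h, filled squares the 2 at 12 h and black bars their means. CHD8 at Axin2 runs from 0.489 and 0.963 at 0 h to 1.18 and 1.93 at 12 h, and CHD8 at Lef1 runs the other way.

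Regions were then followed one by one. Windows of 100 bp on either side of all summits were merged into regions, 249 in the 8 loci of 370081 in the genome, and a region was called lost when both 0 h lists and neither 12 h list had a peak in it, and gained in the opposite case. Of the 93 CHD8 regions in the loci, 3 were lost and 7 gained (3.27% and 3.93% of CHD8 regions in the genome). CHD4 lost 10 and gained 4 of 196 (5.91% and 2.73%), SMARCA4 lost 2 and gained 10 of 177 (1.72% and 6.57%), and SMARCA5 lost 5 and gained 1 of 109 (3.13% and 4.36%). Lef1 held 5 of the 10 CHD4 losses, among its 39 CHD4 regions, and 2 of the 3 CHD8 losses, among its 14 CHD8 regions. Axin2 held 6 of the 10 SMARCA4 gains, among its 31 SMARCA4 regions, and some of the 6 are neighbours. With whole peaks merged in place of summit windows, CHD8 lost 1 and gained 3, CHD4 lost 5 and gained 1, and SMARCA4 gained 5. With only peaks of a −log10 q of 5 or more, CHD8 lost 0 and gained 2. With lists of equal length the balance turned for both CHD4, which lost 2 and gained 4, and CHD8, which lost 4 and gained 2, and SMARCA5 lost 4 and gained 4.

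Most of the CHD8 losses and gains were weak or small in extent. The 2 lost at Lef1 are neighbours in an intron, 29557 and 29972 bp past the start, under 1 peak in each 0 h library at the 24.8 and 5.51 percentile of its list. The third was at T, at −19889 bp, in an intron of the neighbouring gene T2, at the 21.6 and 14.8 percentile. The 2 gained at Axin2 are neighbours too, 21458 and 21862 bp past the start, under a peak at the 14.1 and 9.92 percentile. Both gained at Cdx1 lay at the promoter of Slc6a7 (percentiles 4.19 and 7.63), and the 1 at Nkd1 87802 bp past its start (5.54 and 26.4). The 1 at Myc lay in an intron 1056 bp past the start, within the promoter, and was stronger, at the 59.0 and 40.9 percentile. The 1 at Ccnd1, at −3958 bp, adjoins the strong upstream CHD8 peak already present at 0 h, and replicate 1 at 12 h overlapped its edge only. No CHD8 region lost or gained in the loci was at a CTCF site, where 31.2% of those lost and 1.58% of those gained in the genome were.

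**Figure D3:**
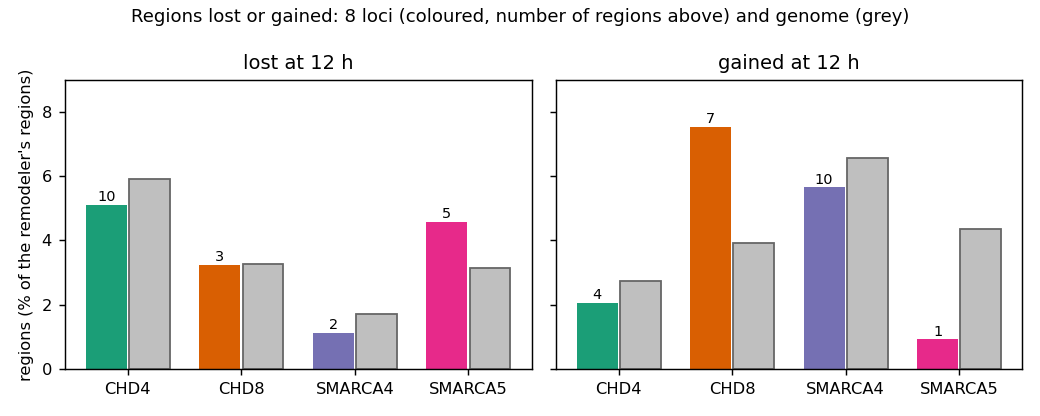
Regions lost (left) and gained (right) at 12 h as a percentage (y axis) of the regions of each remodeler (x axis). Coloured bars are the 8 loci, with the number of regions above, and grey bars the whole genome. CHD8 gained 7 regions and SMARCA4 10, and SMARCA5 gained 1.

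CHD8 was seldom apart from the other remodelers, in these loci as in the genome. Of the 40 regions with CHD8 in both 0 h lists, 37 (92.5%) also had CHD4 in both 0 h lists and 36 (90%) SMARCA4, against 75.4% and 75.6% of the 56083 such CHD8 regions in the genome. SMARCA5 accompanied 16 (40%), against 44.9%. None of the 40 was without a peak of the other 3 at 0 h, where 2.64% were in the genome. At a promoter of any protein-coding gene lay 21 of the 40 (52.5%), against 40.8%. Each locus was drawn around a gene and so holds a promoter by definition, which the genome share does not allow for. The 40 regions are not independent of each other, since neighbours often lie under 1 wide peak.

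**Figure D4:**
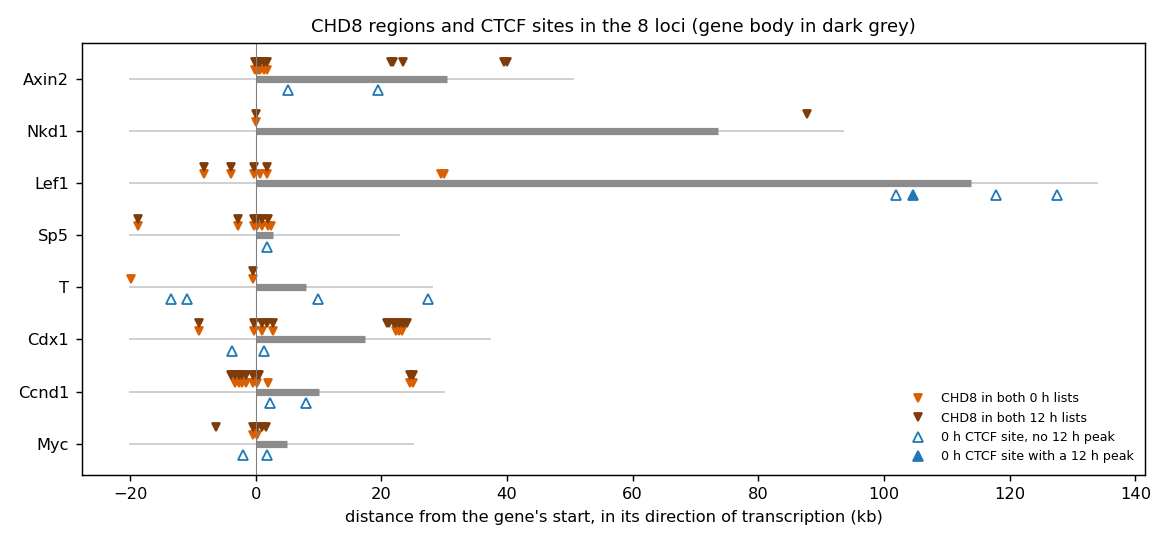
Map of the 8 loci by distance from each gene's start in its direction of transcription (x axis, kb), with 1 row per gene and the gene body in dark grey. Orange and brown triangles above the line are regions with CHD8 in both lists at 0 h and at 12 h, and blue triangles below it are 0 h CTCF sites, filled for the 1 with a 12 h peak. CHD8 regions gather near the starts, and at Lef1 the 4 CTCF sites lie more than 100 kb past the start.

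The 8 loci held 17 CTCF sites at 0 h, each taken as 100 bp on either side of the summit: 4 at Lef1, 4 at T, 2 each at Axin2, Cdx1, Ccnd1 and Myc, 1 at Sp5 and none at Nkd1. At 12 h 1 of the 17 still had a CTCF peak (7.40% of the 29934 sites in the genome), an intronic site of Lef1 104617 bp past the start whose fold enrichment was 30.2 at 0 h and 9.00 at 12 h. A second intronic Lef1 site, 101931 bp past the start, was about as strong at 0 h with a fold enrichment of 29.4, carried SMC1A and had no 12 h peak. SMC1A was present at 7 of the 17 (45.8% in the genome).

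Sequences of 61 bases around the CTCF core motif are shown for these 2 Lef1 sites and for 1 in an intron of Ccnd1. At the Ccnd1 site, alone of the 17, CHD8 went from both lists to none (4.52% of sites in the genome). The core was searched as AGGGGGC, in another form as AGGTGGC, and also as AGATGGC, on either strand, and is in capitals. The search covered 100 bp on either side of the summit. A searched form was found at 10 of the 17 sites (58.8%), at 43.6% of all sites and at 10.9% of windows moved by 100 kb. A further form, AGAGGGC, was not searched, so a site without a match may still hold a core. It is present, for example, at the Axin2 site 5065 bp past the start, which counted as without a match. The first is chr3:131215049-131215109 and the next chr3:131212414-131212474, both minus strand. The third is chr7:144937607-144937667, plus strand. In genome coordinates the core lay −9 bp from the CTCF summit at the first and −7 bp at the third. At the Lef1 site without a 12 h peak it lay 42 bp away, and the printed stretch leaves out the summit.
Lef1 site with a 12 h peak: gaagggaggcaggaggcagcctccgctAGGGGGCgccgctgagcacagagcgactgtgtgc
Lef1 site without one: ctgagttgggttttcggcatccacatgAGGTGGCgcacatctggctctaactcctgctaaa
Ccnd1 intron site: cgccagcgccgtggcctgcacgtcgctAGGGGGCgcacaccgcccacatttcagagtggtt

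CHD8 was on 3 of the 17 sites in both lists at 0 h (18.9% in the genome) and on 3 in both at 12 h (12.0%). They were not the same 3: the sites at Sp5, in the coding exon, and in the Cdx1 intron had CHD8 at both times, the Ccnd1 intron site at 0 h only (the wider region around it, centred 1896 bp past the start, kept a peak in 1 CHD8 list at 12 h), and the Myc intron site, 1761 bp past the start, in 1 list at 0 h and both at 12 h. CHD4 was in both lists at 10 sites at 0 h and 3 at 12 h, against 31.6% and 12.6% of sites in the genome, and at 4 sites it was in both 0 h lists and neither 12 h list, against 12.0%. Of those 4, 3 were at Lef1, at 101931, 104617 and 127468 bp past the start, and 1 was at T, at −13482 bp. The Lef1 site that kept a CTCF peak was thus among those that had CHD4 at 0 h and not at 12 h. SMARCA4 was in both lists at 4 sites at 0 h and 5 at 12 h (19.7% and 19.0%). At the Axin2 intron site, 5065 bp past the start, it was in neither list at 0 h and both at 12 h, against 1.02% of sites in the genome. SMARCA5 was in both lists at 2 sites at 0 h and at 0 at 12 h (9.46% and 6.98%). Both of these 0 h sites had it in neither 12 h list, against 2.38% of sites in the genome. Of the 14 SMC1A peaks in the loci, 7 (50%) overlapped a 0 h CTCF peak, where 81.7% of the whole SMC1A list did.

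**Figure D5:**
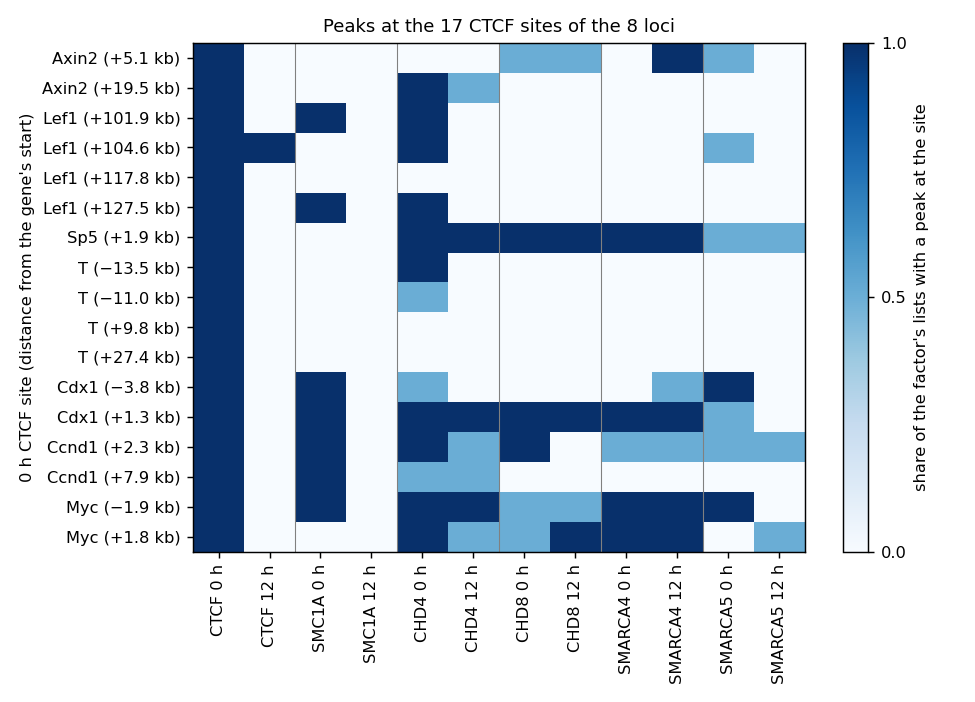
The 17 CTCF sites of the 8 loci (rows, with the distance from the gene's start) by factor and time (columns). Colour is the share of the factor's lists with a peak at the site, of 1 list for CTCF and SMC1A and 2 for each remodeler, from white (none) to dark blue (all). The CTCF 12 h column is filled at 1 site of Lef1, and CHD4 is in both 12 h lists at 3 sites, at Sp5, in the Cdx1 gene and upstream of Myc.

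The rest of the pathway was read from a list of 56 genes that are not members, all found and all tested. None was called on its peak share, and 2 had an unadjusted p under 0.05 (exact permutation test): the receptor gene Fzd7 at −0.53 (adjusted p = 0.478) and the kinase gene Gsk3a at 0.28 (adjusted p = 0.537). The median of the 56 was −0.056. CHD8 was in both lists at 45 of the 56 promoters at 0 h (80.4%) and 44 at 12 h (78.6%), against 57.5% and 56.1% of all promoters. By role, at 0 h it was on 9 of 9 nuclear factors, 10 of 11 receptors, 9 of 10 genes of signal transduction and the destruction complex, 7 of 9 inhibitors, 6 of 8 other target genes and 4 of 9 genes of ligands and their secretion. At Rnf43, a ligase that removes Wnt receptors, and Nkd2, the relative of Nkd1, CHD8 was in both lists at 0 h and neither at 12 h, and at none of the 56 the reverse. The share of all promoters that changed in either way was not counted. The median CHD8 rank of the 43 of the 56 promoters in the ranked set was 28.1 at 0 h and 25.8 at 12 h, and 31 and 32 of them lay under 50. Their CHD4 and SMARCA4 ranks had medians of 47.9 and 49.1 at 0 h.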

How the data were processed

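Peaks of ChIP-seq were analysed in 20 lists from 30 samples of E14 mouse embryonic stem cells. The 10 input samples were not analysed here. The submitters' processing notes name Trim Galore, Bowtie2, MACS2 and deepTools, without versions, and the builds mm10 and hg38. No peak ended past an mm10 chromosome. The deposited files hold 1 list per library. Their values are, by the column order of the narrowPeak format as the authors deposited it, the fold enrichment, a ratio over background, and the −log10 of p and q. The deposited offset of each summit was used as a position. The control and threshold of the caller are not given in the sources used here, and the lowest −log10 q in any list is 1.30. Read depth is unknown from these files, so list lengths (40880 to 187294 peaks in the remodelers) stand in for it and limit the precision.

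The members, gene lists and tests were chosen with earlier results of these data known. Libraries were grouped by remodeler and time from the labels. Genes with a mean of under 1 peak per library were left out of the locus test, and p-values were adjusted by the Benjamini-Hochberg method over all genes tested. In each locus the text names the promoter peaks, the region with the highest CHD8 at 0 h, each CTCF site, and the regions CHD8 lost or gained. Alternatives covered a stricter q (its −log10 at 5 or more), lists cut to 1 length, summits, flanks, covered bases, scaling, the pseudocount, the replicate block and each library left out. The locus test was tested on simulated data. Sequences came from GRCm38 with samtools 1.23.1 and from the RefSeq promoter table (GRCm38), which held 5 of the 8 members. Python 3.11.15, numpy 2.4.6 and pandas 2.3.3 were used.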

Additional observations from a re-analysis of the deposited data

Results flagged for a closer look

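In 2 loci the CHD8 peak share, on the log2 scale with 1 peak added, was higher in both 12 h libraries than in both 0 h libraries while another remodeler's was lower in both, each remodeler being measured in its own tagged line. At Axin2 the log2 difference was 0.91 for CHD8 and −0.23 for CHD4. At Myc it was 0.35 for CHD8 and −0.80 for SMARCA4, and replicate 1 of CHD8 had 5 peaks at Myc at both times. Without the added peak the Myc shares of CHD8 overlapped between times: 0.963 and 0.489 before IAA, 0.965 and 0.946 after it, per 10000 peaks of the list. Over all genes tested, the CHD8 share was higher in both 12 h lists at 13.3%. How many genes also had another remodeler lower in both was not counted. The difference between remodelers was not tested.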

How the results depend on the processing

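No alternative called a gene in the test of peak shares, and 628 to 2132 genes had an unadjusted p under 0.05. Of the 8 loci, some changed sign under a setting, with no call before or after. With only peaks of a −log10 q of 5 or more, the change was −0.034 at Axin2, 0.14 at Lef1, 0.034 at T, 0.038 at Ccnd1 and 0.0058 at Myc. With equal list lengths it was 0.071 at Lef1. With base pairs covered in place of peaks it was 0.013 at Ccnd1 and 0.032 at Myc, and with no scaling by list length 0.023 at Ccnd1. Leaving out each library in turn gave −0.17 to 0.073 at Ccnd1 and kept the sign at the other 7.

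Counts of promoters moved with a −log10 q of 5 or more, to 5 for CHD8 at 0 h, 5 for CHD8 at 12 h and 1 for SMARCA5 at 0 h. Counts of lost and gained regions moved the most. With merged whole peaks, CHD4 lost 5 and gained 1, CHD8 lost 1 and gained 3, SMARCA4 gained 5 and SMARCA5 lost 1. With a −log10 q of 5 or more, CHD4 lost 2, CHD8 lost 0 and gained 2, SMARCA4 lost 0 and gained 2, and SMARCA5 lost 0 and gained 2. With equal list lengths, CHD4 lost 2 and gained 4, CHD8 lost 4 and gained 2, SMARCA4 lost 0 and gained 5, and SMARCA5 lost 4 and gained 4, so the balance of losses and gains turned for CHD4 and CHD8. With summits required in the region, CHD8 lost 1 and gained 4, SMARCA4 lost 5 and gained 6, and SMARCA5 lost 3 and gained 2. Fewer peaks or regions enter under the first 3 of these. Leaving out 1 library at a time, where 1 list then decides a time, CHD4 lost 10 to 36 and gained 7 to 24, CHD8 lost 4 to 11 and gained 10 to 18, SMARCA4 lost 5 to 18 and gained 11 to 38, and SMARCA5 lost 5 to 17 and gained 3 to 19. The counts of CTCF sites stayed within 1.5 times.

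The median CHD8 rank of the promoters moved to 15.2 at 0 h and 20.2 at 12 h with promoters of 5 kb, to 13.9 at 0 h with the stricter q and to 18.7 at 12 h with equal list lengths. That of CHD4 was 42.0 at 0 h and 62.9 at 12 h with equal list lengths. That of SMARCA4 at 12 h was 90.3 with the stricter q, 88.6 with equal list lengths and 90.3 with promoters bound in all 16 lists. The cause of these moves was not tested. These alternatives of the rank were added after seeing the data.

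With the replicate number as a block, each change kept its value, such as −0.30 at Lef1 (adjusted p = 0.528, exact permutation test), and 0 genes were called. The labels do not say whether a number marks a shared culture: the replicate differences at 0 h and 12 h correlated over genes at 0.29 for CHD4, 0.19 for CHD8, −0.20 for SMARCA4 and −0.012 for SMARCA5. A block with the SMARCA4 numbers crossed, added after seeing the data, also called 0.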
